A study of Mus musculus with 24 samples.

Results

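Oxidative phosphorylation genes were followed in the lumbar spinal cord of mice with a mutant human SOD1 transgene. The members were the genes that the deposited table assigns to the mouse oxidative phosphorylation pathway, without the V-ATPase genes, which acidify vesicles and are listed in the same pathway. This left 97 of the 15524 genes in the table, of which 7 are encoded by mitochondrial DNA and 90 by nuclear DNA. Their prefixes sorted the nuclear members into 38 of complex I, 4 of complex II, 9 of complex III, 17 of complex IV, 3 assembly factors of complex IV, 15 of complex V and 4 others.

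Non-transgenic (NT) mice were compared with littermates carrying loxSOD1-G37R, a mutant human superoxide dismutase 1 transgene crossed onto C57BL6, which develop motor neuron disease late in life and were taken when symptomatic. In experiment 1 there were 3 females and 3 males per genotype, and in experiment 2 only males, 4 per genotype. Another 4 SOD1-G37R males received the vector AAV-PHP.eB-MIF-HA once through the tail vein after disease onset, and are called MIF mice here. No group given a vector without MIF was analysed here, and no source states the age or the experiment of the MIF mice, which were set beside experiment 2 because their label codes have the form of its codes. RNA came from 24 mice, 1 library each, and was read at the 3′ ends of transcripts with a molecular tag on each fragment (MARS-seq). Each value, called a level below, is on a log2 scale after the authors removed the difference between experiments. The deposited table gives no read totals, so the depth behind each mouse's values is not known here. A member was called when its Benjamini-Hochberg adjusted p over all 15524 genes was under 0.05 in limma.

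In the inner mitochondrial membrane, complexes I to IV pass electrons from NADH and succinate to oxygen. All of them except complex II pump protons, and complex V uses the proton gradient to make ATP. Most subunits are encoded in the nucleus and imported, while a few hydrophobic ones are made inside the mitochondrion from its own DNA. Several complex IV subunits and subunit c of complex V exist in more than one isoform, with one isoform typical of muscle, testis or other tissues and another made almost everywhere. Neurons depend heavily on this pathway, and motor neurons do so along very long axons.

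The 97 members were in large part among the abundant transcripts of the cord, with a median level of 8.88 against 4.18 for all genes. Neither transgene could be checked in these values. Mouse Sod1 ranged from 10.11 to 10.45 in NT and from 9.99 to 10.50 in SOD1-G37R mice, and no source states whether reads of the human transgene would be counted in this row. Mif ranged from 9.57 to 10.02 in MIF mice and from 9.53 to 9.78 in the untreated SOD1-G37R males of experiment 2, a difference of 0.09 ± 0.12 (SE, n = 4 mice per group, limma adjusted p = 0.9997), and no source states whether the 3′ end of the vector transcript would be counted in it. Neuron markers were lower in SOD1-G37R mice, with 9 of 10 called, and their mean level ran from 9.28 to 9.52 in NT and from 8.46 to 9.15 in SOD1-G37R mice. Microglia and macrophage markers were higher, with 11 of 12 called, and their mean level ran from 6.32 to 6.69 in NT and from 7.59 to 8.45 in SOD1-G37R mice. Astrocyte markers had 5 of 7 called higher. Motor neuron markers had 4 of 6 called lower, and fast-spiking interneuron markers 4 of 5. Of all genes, 11.8% were called lower and 14.8% higher. The part of these changes in cell makeup in the results below was not tested, and in bulk tissue fewer cells of a type and less RNA per cell cannot be told apart.

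Most members were slightly lower in SOD1-G37R than in NT mice, and 4 isoforms were called higher. With both experiments in the fit (10 mice per genotype), 30 of the 97 members were called lower and 4 higher. A difference below 0 was found in 80 members, against 49.8% of all genes. The median difference of the members was -0.13 on the log2 scale, against 0.00 for all genes. Over all 15524 genes, 11.8% were called lower and 14.8% higher. The share called lower was larger among abundant genes of any kind, so the members were also set beside those. Among the 893 genes with a mean level of at least 8, 39.5% were called lower and 20.0% higher, and the median difference was -0.12. Of the 64 members at that level, 26 were called lower, which is 40.6%, and 0 higher, with a median of -0.17. The share of abundant members called lower was thus near that of all abundant genes. Of the 64 members, 57 had a difference below 0, against 570 of the 893 genes. By level, 8 of 19 members were called lower between 8 and 9, 11 of 36 between 9 and 10, and 7 of 9 above 10. For all genes these shares were 40.6%, 39.8% and 35.3%. Below a level of 8, 4 members were called lower and 4 higher out of 33. Of all 14631 genes below that level, 1477 were called lower and 2111 higher. The share called lower was thus 12.1% of members and 10.1% of all genes, and the share of members called higher was not above that of all genes. When the median of every mouse was set equal, which shifted the median difference of all genes to -0.07, 2945 genes were called lower and 1645 higher in place of 1830 and 2290, and 49 members were lower and 4 higher.

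**Figure D1:**
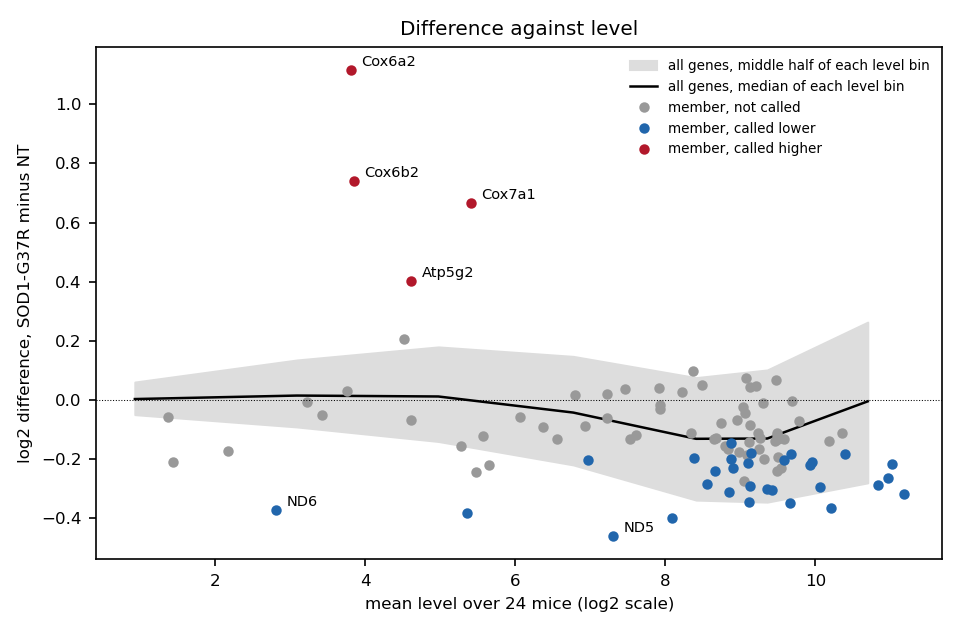
The log2 difference SOD1-G37R minus NT (vertical axis) against the mean level over 24 mice (horizontal axis, log2 scale) for each of the 97 members, coloured by call, over the median and interquartile range of all genes in bins of level. Members called lower lie mostly above a level of 8, while the median of all genes is below 0 between levels of 8 and 10 and near 0 above 10, and the 4 members called higher lie below a level of 6.

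**Figure D2:**
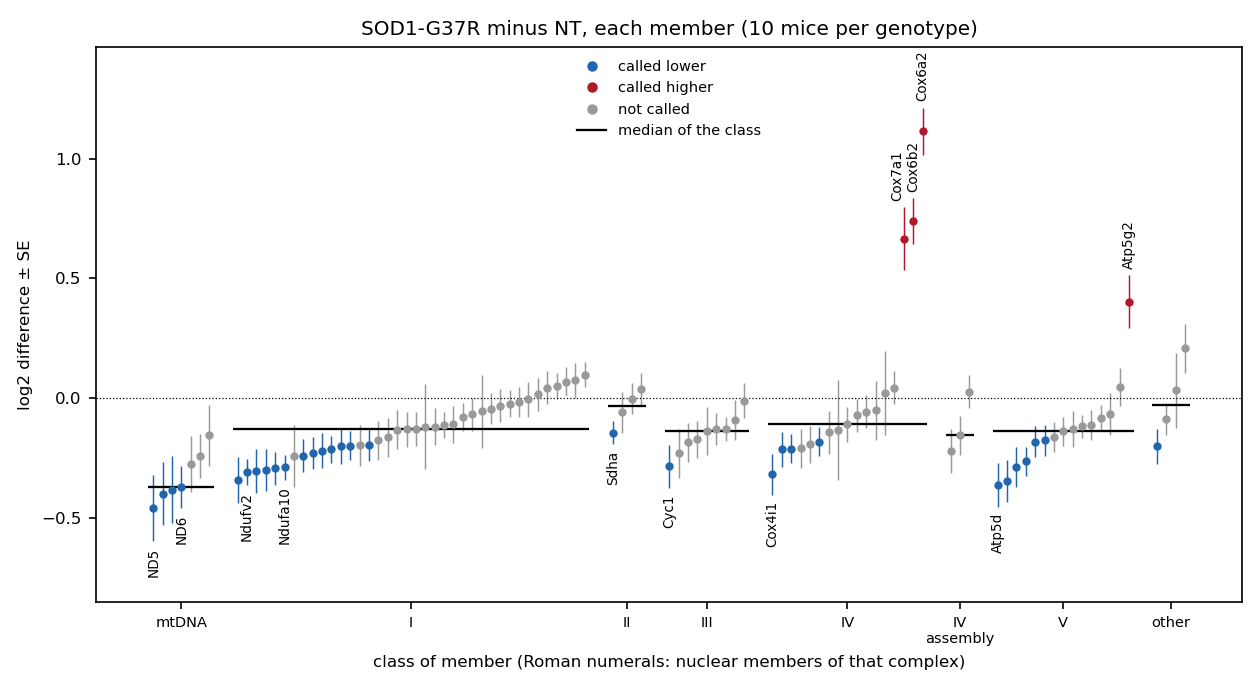
The log2 difference SOD1-G37R minus NT with its standard error for each of the 97 members, sorted by class and by size within a class, from 10 mice per genotype. Black lines mark class medians, which are -0.37 for the mitochondrial DNA genes, between -0.16 and -0.03 for the nuclear classes, and the 4 members called higher stand apart from their classes.

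The 7 members encoded by mitochondrial DNA were ND1, ND2, ND4, ND5 and ND6 of complex I, CYTB of complex III and COX1, the catalytic subunit of complex IV. Other protein genes of mitochondrial DNA, such as COX2, COX3, ATP6 and ATP8, are not among the members. All 7 had a difference below 0, with a median of -0.37, and 4 were called lower. Of all genes 11.8% were called lower, and of those with a mean level of at least 8, 39.5%. They varied more between mice than the nuclear members, with a median residual SD of 0.32 against 0.16. The mean level over the 7 genes ran from 7.05 to 7.94 in NT mice, with a median of 7.40, and from 6.89 to 7.43 in SOD1-G37R mice, with a median of 7.09. The genotypes therefore overlapped in this summary and in each of the 7 genes.

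ND6, the one of these genes read from the other strand of the mitochondrial genome, ran from 2.62 to 3.26 in NT mice with a median of 3.04, and from 2.31 to 2.91 in SOD1-G37R mice with a median of 2.61. It was lower by 0.37 ± 0.09 (SE), with an adjusted p of 0.0027, and its annotated span overlaps that of ND5 on the opposite strand, so the counts of the pair may not be fully separate. ND5 ran from 7.10 to 8.12 in NT mice with a median of 7.49, and from 6.67 to 7.63 in SOD1-G37R mice with a median of 6.93. Its difference was -0.46 ± 0.14 (SE), with an adjusted p of 0.016. ND2 differed by -0.40 ± 0.13 (SE), with an adjusted p of 0.024, and missed the threshold at 0.0503 without NT male replicate 3 of experiment 2, where the difference was -0.33. COX1 differed by -0.38 ± 0.14 (SE), with an adjusted p of 0.046, and 12 of the 20 mice were each enough to lose the call when left out, with adjusted p up to 0.0896. The COX1 row is low, from 4.78 to 5.94 over all mice against 9.05 to 10.09 for CYTB, which makes its difference uncertain. ND1, CYTB and ND4 were not called, with differences of -0.28, -0.24 and -0.16. ND5 and ND6 stayed called whichever of the 20 mice was left out. Within experiment 1 the 7 differences had a median of -0.35 and 1 was called, and within experiment 2 the median was -0.31 without a call.

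**Figure D3:**
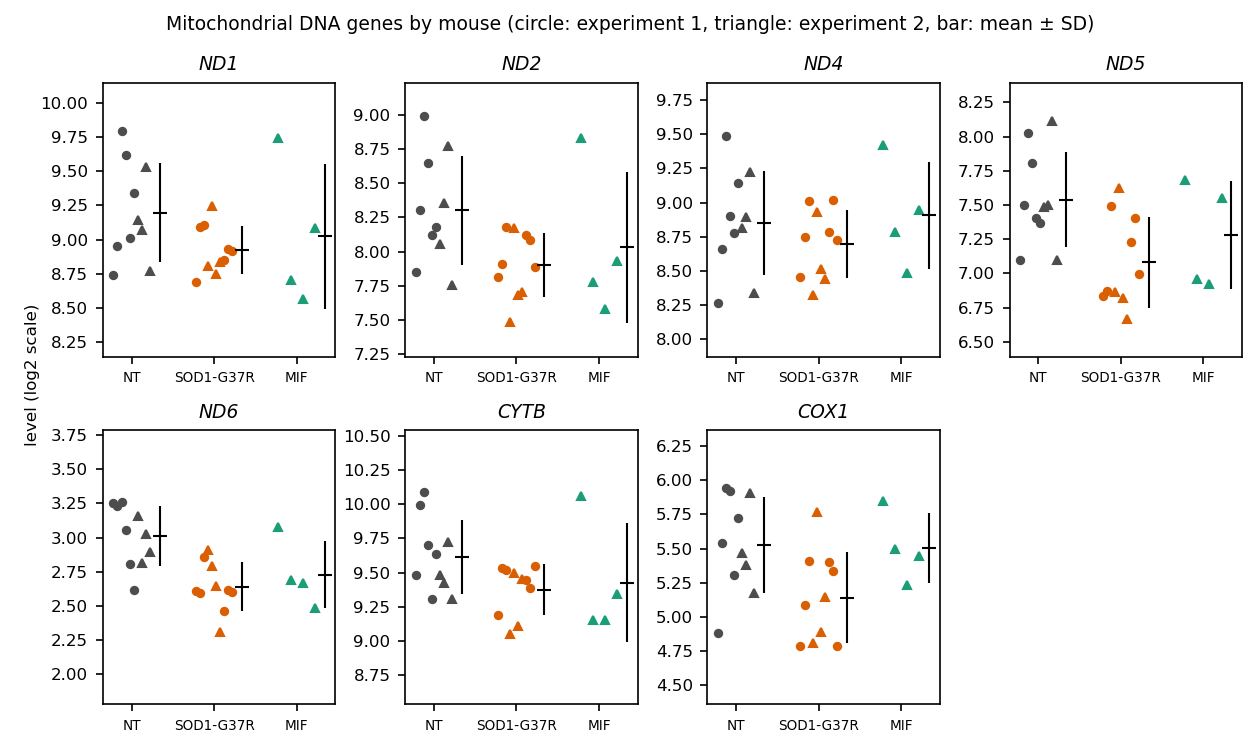
Level of each mitochondrial DNA gene (vertical axes, log2 scale, each panel on its own range) in each mouse of the NT, SOD1-G37R and MIF groups, with circles for experiment 1, triangles for experiment 2 and a bar for mean ± SD. SOD1-G37R mice sit lower on average and overlap NT mice in every panel, and 1 MIF mouse is the highest of its group in all 7 panels.

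Complex I takes electrons from NADH. Of its 38 nuclear members 13 were called lower and 0 higher, 32 had a difference below 0, and the median was -0.13. The median level of this class was 8.89. Among all genes with a mean level of at least 8, 39.5% were called lower and 20.0% higher. Levels in the class ran from 3.23 to 10.36, so the 38 members and the abundant genes are not like sets. No ranking of their shares is given. Ndufv2, an iron-sulfur subunit of the NADH-oxidizing arm (chr17:66078638-66101559, minus strand, GRCm38), ran from 8.87 to 9.16 in NT mice with a median of 9.01, and from 8.56 to 8.87 in SOD1-G37R mice with a median of 8.69. The genotypes did not overlap in either experiment or in both together, although the highest SOD1-G37R mouse and the lowest NT mouse nearly met. Ndufv2 was lower by 0.31 ± 0.06 (SE), with an adjusted p of 1.6e-04. It was the only one of the 97 members whose 10 SOD1-G37R values all lay below the 10 NT values, and 0.773% of all genes did so.

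Ndufa10, an accessory subunit of the membrane arm, ran from 9.12 to 9.43 in NT mice with a median of 9.28, and from 8.86 to 9.16 in SOD1-G37R mice with a median of 8.96. It differed by -0.29 ± 0.05 (SE), with an adjusted p of 1.8e-04. Ndufb8, another accessory subunit of the membrane arm, differed by -0.29 ± 0.07 (SE), with an adjusted p of 0.0025. Ndufv1, which carries the NADH and flavin site next to Ndufv2, had the largest difference of the class at -0.34. The nuclear core subunits were uneven, since Ndufs7 and Ndufs8 were called lower at -0.31 and -0.19 while Ndufs3 at -0.02 was not called. At the other end of the class lay Ndufa1, at +0.10 and not called.

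Complex II, which is also an enzyme of the citrate cycle, had 1 of 4 members called lower. Sdha, the flavoprotein that oxidizes succinate, ran from 8.83 to 9.07 in NT mice with a median of 8.94, and from 8.72 to 8.90 in SOD1-G37R mice with a median of 8.78. Its difference was -0.14 ± 0.05 (SE), with an adjusted p of 0.029, and leaving out any 1 of 4 mice lost the call, with adjusted p from 0.0503 to 0.0563. Those were NT female replicate 6, NT male replicate 1 of experiment 2, SOD1-G37R male replicate 4 of experiment 1 and SOD1-G37R male replicate 3 of experiment 2. The other members of complex II, Sdhb, Sdhc and Sdhd, lay between -0.06 and 0.04. The median of the class was -0.03 here and 0.01 after quantile normalization, so no direction is given for complex II as a whole.

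Complex III passes electrons from ubiquinol to cytochrome c. All 9 nuclear members had a difference below 0, with a median of -0.14, and 1 was called. Cyc1, the heme-carrying cytochrome c1, ran from 8.46 to 9.12 in NT mice with a median of 8.70, and from 8.14 to 8.84 in SOD1-G37R mice with a median of 8.37. It differed by -0.29 ± 0.09 (SE), with an adjusted p of 0.022, and the groups overlapped over both experiments but not in experiment 1.

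Complex IV, cytochrome c oxidase, reduces oxygen to water and had members that moved in both directions. Of its 17 nuclear members 4 were called lower and 3 higher. Of all genes, 11.8% were called lower and 14.8% higher, and of those with a mean level of at least 8, 39.5% and 20.0%. The 4 lower members were Cox4i1, Cox5a, Cox5b and Cox6a1, of which Cox4i1 and Cox6a1 are the widely made forms of their subunits. Cox4i1 ran from 10.98 to 11.62 in NT mice with a median of 11.41, and from 10.86 to 11.48 in SOD1-G37R mice with a median of 11.04. It differed by -0.32 ± 0.09 (SE), with an adjusted p of 0.0069. Cox5a differed by -0.21 ± 0.06 (SE) with an adjusted p of 0.0095. Cox5b differed by -0.18 ± 0.06 (SE) with an adjusted p of 0.025, and missed the threshold at 0.0515 without NT female replicate 6, where the difference was -0.15. Their ranges overlapped between genotypes.

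The 3 higher members were Cox6a2, Cox6b2 and Cox7a1, the isoforms of 3 subunits that are known from heart and skeletal muscle (Cox6a2 and Cox7a1) and from testis (Cox6b2). All lie on chromosome 7, at distant positions (GRCm38). Cox6a2 (chr7:128205435-128206387, minus strand) ran from 2.89 to 3.48 in NT mice with a median of 3.16, and from 3.73 to 4.59 in SOD1-G37R mice with a median of 4.31. Every SOD1-G37R mouse lay above every NT mouse in both experiments. The difference was 1.12 ± 0.10 (SE), with an adjusted p of 6.8e-09, the smallest of the 97 members.

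Cox6b2 (chr7:4751792-4753094, minus strand) ran from 3.20 to 3.70 in NT mice with a median of 3.52, and from 3.72 to 4.67 in SOD1-G37R mice with a median of 4.29. The genotypes again did not overlap, by a narrow margin, and the difference was 0.74 ± 0.10 (SE), with an adjusted p of 2.6e-06. Cox6a2 and Cox6b2 were the 2 members whose SOD1-G37R values all lay above the NT values, which 3.23% of all genes did. Cox7a1 (chr7:30184144-30186078, plus strand) ran from 4.62 to 5.27 in NT mice with a median of 5.03, and from 4.80 to 6.08 in SOD1-G37R mice with a median of 5.79. It differed by 0.67 ± 0.13 (SE), with an adjusted p of 4.1e-04, and separated the genotypes in experiment 1 only, since 1 SOD1-G37R male of experiment 2 lay at 4.80. These 3 calls held whichever mouse was left out.

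The partner isoforms did not follow. Cox6a1, the widely made partner of Cox6a2 (chr5:115345642-115348981, minus strand), ran from 10.88 to 11.39 in NT mice with a median of 11.12, and from 10.75 to 11.20 in SOD1-G37R mice with a median of 10.94. It was lower by 0.21 ± 0.07 (SE), with an adjusted p of 0.031, and lost the call when any 1 of 7 of the 20 mice was left out, with adjusted p up to 0.0635. Cox6b1, the partner of Cox6b2, differed by -0.19 ± 0.08 (SE) and was not called, with an adjusted p of 0.072. Cox7a2, the partner of Cox7a1, differed by -0.13 ± 0.21 (SE), with an adjusted p of 0.71, and varied widely between mice. Within each mouse, Cox6a2 lay 7.94 below Cox6a1 at the median of NT mice and 6.59 below at the median of SOD1-G37R mice, as differences of log2 levels. Cox7a1 lay 1.66 below Cox7a2 at the median of NT mice and 0.71 below at the median of SOD1-G37R mice, where the gap reached 0.39 above. These gaps are between rows and not per transcript length. The Cox7a2 row is low for a widely made isoform, which makes its gap to Cox7a1 uncertain. The gap does not show that the 2 isoforms are made in like amounts.

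Other paired isoforms gave no such pattern. Cox4i2, a lung form of Cox4i1, had a median of 3.49 in NT and 3.43 in SOD1-G37R mice, with overlapping groups, and its difference was -0.05 ± 0.12 (SE). Cox8b, the heart and muscle form of Cox8a, was near the floor, with levels from 1.31 to 1.84 in NT and from 1.21 to 1.74 in SOD1-G37R mice and a difference of -0.21 ± 0.08 (SE, adjusted p = 0.057). Cox8a itself differed by -0.14 and was not called. Cox7b2, a testis form, had a median of 1.40 in NT and 1.35 in SOD1-G37R mice. Cox7b at +0.02 and Cox7a2l at +0.04, a factor that joins complexes III and IV, were not called. Ndufa4, named for complex I but found in complex IV, differed by -0.12, and its relative Ndufa4l2 by -0.01, and neither was called. The rises were thus in 3 isoforms, and other muscle and testis forms at still lower levels, Cox8b and Cox7b2, were not called.

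**Figure D4:**
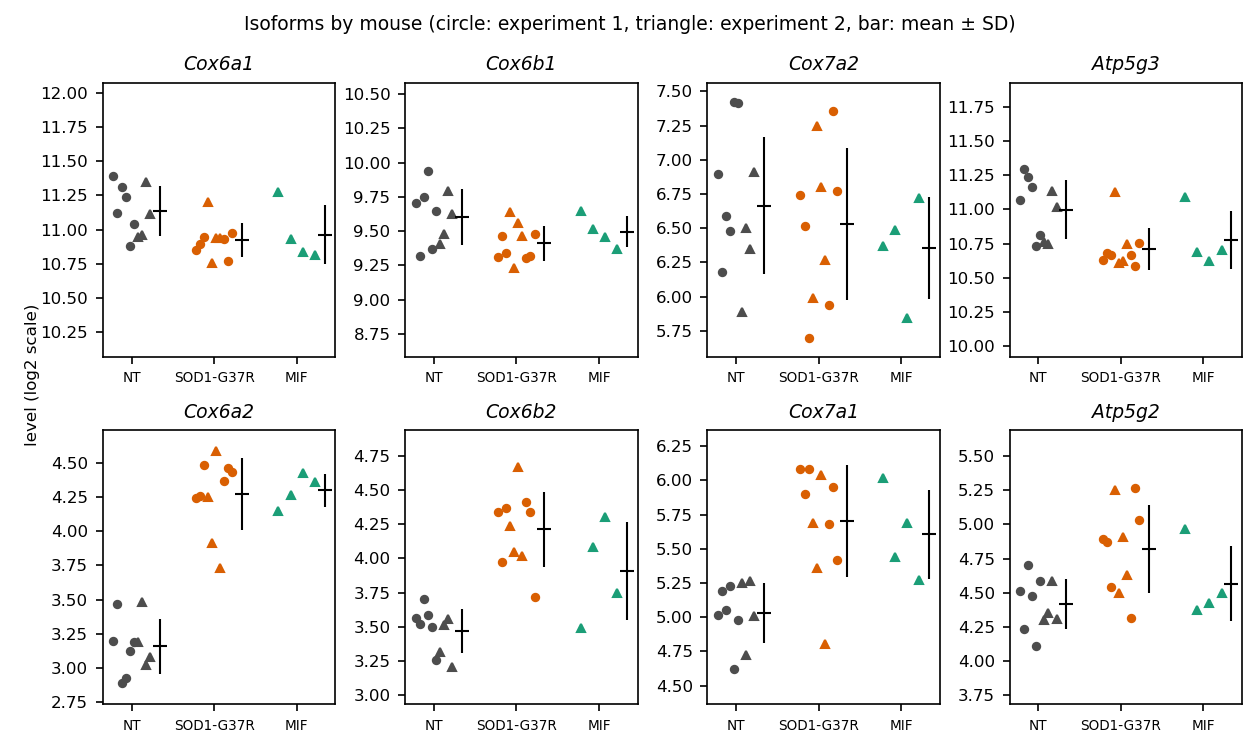
Level (vertical axes, log2 scale, each panel on its own range) of 4 widely made isoforms in the top row and their less abundant partners in the bottom row, by mouse, with circles for experiment 1, triangles for experiment 2 and a bar for mean ± SD. In the bottom row, SOD1-G37R mice lie above NT mice without overlap for Cox6a2 and Cox6b2 and with overlap for Cox7a1 and Atp5g2, while in the top row the groups overlap throughout.

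Of 8 skeletal muscle markers only Acta1 and Mylpf had a row, their mean level did not pass 1.75 in any NT or SOD1-G37R mouse, and neither was called. Among pericyte and mural cell markers, 3 of 8 were called higher, against 14.8% of all genes. Neighbouring genes were looked up because reads near a short gene can be credited to another. Cox6a2 overlaps Itgad, an integrin subunit of myeloid cells on the opposite strand, which has no row in the table. Itgam, another integrin subunit of the myeloid lineage, was higher by 1.22 ± 0.12 (SE, adjusted p = 2.1e-08). Cox7a1 lies 858 bases from Capns1, a calpain subunit on the opposite strand, which was higher by 0.34 with an adjusted p of 0.0034. Gm5113 and Gm26810, on the strand of Cox7a1, differed by -0.03 and 0.03 and were not called. Cox6b2 lies 132 bases from Fam71e2, which has no row, and 4278 bases from Kmt5c, which differed by -0.21 and was not called. The part of neighbouring reads or of microglia in these rises was not tested.

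Complex V, the ATP synthase, had 6 of 15 members called lower and 1 higher, with a median of -0.14. Of all genes with a mean level of at least 8, 39.5% were called lower. Levels in complex V ran from 4.61 to 10.97, so these are not like sets. Atp5b, the catalytic beta subunit, ran from 10.99 to 11.28 in NT mice with a median of 11.09, and from 10.71 to 11.12 in SOD1-G37R mice with a median of 10.83. It differed by -0.26 ± 0.06 (SE), with an adjusted p of 0.0016. Atp5d, the delta subunit of the rotor stalk, differed by -0.36 ± 0.09 (SE) with an adjusted p of 0.0041, and Atp5j2, subunit f of the membrane part, by -0.35 ± 0.09 (SE) with an adjusted p of 0.0048.

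Subunit c, which forms the proton-driven ring, is encoded by Atp5g1, Atp5g2 and Atp5g3, whose mature proteins are the same. The 3 genes did not move together. Atp5g3, with the highest row of the 3, ran from 10.73 to 11.29 in NT mice with a median of 11.04, and from 10.59 to 11.13 in SOD1-G37R mice with a median of 10.67, a difference of -0.29 ± 0.08 (SE) with an adjusted p of 0.013. Atp5g1 differed by -0.18 ± 0.06 (SE) with an adjusted p of 0.038, and lost the call when any 1 of 11 of the 20 mice was left out, with adjusted p up to 0.0766. Atp5g2 ran from 4.11 to 4.71 in NT mice with a median of 4.42, and from 4.31 to 5.26 in SOD1-G37R mice with a median of 4.88. It was higher by 0.40 ± 0.11 (SE), with an adjusted p of 0.0077, the genotypes overlapped, and the call held whichever mouse was left out. Within each experiment alone it was not called, at 0.38 in experiment 1 and 0.43 in experiment 2. Its low row may in part reflect how reads were shared with near copies, and this was not tested.

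Of the last 7 members, 1 was called. The mitochondrial pyrophosphatase Ppa2 differed by -0.20 ± 0.07 (SE), with an adjusted p of 0.040, and lost the call when any 1 of 10 of the 20 mice was left out, with adjusted p up to 0.0839. Cytochrome c, Cycs, differed by +0.03 and the complex IV assembly factors Cox10, Cox11 and Cox17 by -0.16, -0.22 and +0.03, and none of them was called. The same held for Ppa1, a cytosolic pyrophosphatase, and for Lhpp, a phosphatase.

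Because members moved in both directions, their promoters were searched for letters bound by factors of respiratory genes, on both strands of the 250 bases before and 50 after each annotated start. RefSeq promoters (GRCm38.p6) matched 73 of the 97 members, with 79 promoters. The palindromic core recognized by NRF1, whose letters stand in capitals in the first and second windows below, was found in 6.33% of member promoters and in 0.971% of all promoters. CCGGAAGT, recognized by GABPA, stood in 7.59% and 3.89%, TCAAGGTCA, recognized by the estrogen-related receptors, in 2.53% and 0.423%, and AAGATGGCG, recognized by YY1, in 10.1% and 1.40%. The windows of 4 members described above are shown with the motif in capitals, in the direction of the gene, because they include 1 member that rose and 3 that fell.
Cox6a1, NRF1 letters, 162 bases before the start, chr5:115349101-115349130, minus strand: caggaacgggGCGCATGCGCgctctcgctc
Atp5g2, NRF1 letters, 42 bases before the start, chr15:102671070-102671099, minus strand: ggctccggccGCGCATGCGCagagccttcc
Atp5g3, estrogen-related receptor letters in reverse, 52 bases before the start, chr2:73911360-73911388, minus strand: tgttacaaagTGACCTTGAgcgtcttccc
Atp5j2, YY1 letters just after the start, chr5:145191500-145191528, minus strand: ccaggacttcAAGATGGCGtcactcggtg
Cox6a1 was called lower and Atp5g2 higher with the same NRF1 letters in their windows. These letters describe the sequence only.

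Genes that regulate the pathway were listed apart from the members. Of all genes, 11.8% were called lower and 14.8% higher. Of 18 genes for transcription and expression of the respiratory chain, 4 were called lower and 2 higher, with a median of -0.06. The lower ones were the coactivators Ppargc1a (-0.36 ± 0.10 SE, adjusted p = 0.010) and Ppargc1b (-0.37 ± 0.09 SE, adjusted p = 0.0043), the nuclear receptor Esrra (-0.33 ± 0.08 SE, adjusted p = 0.0026) and the mitochondrial RNA polymerase Polrmt (-0.40 ± 0.11 SE, adjusted p = 0.0061). The higher ones were Nfe2l2, which drives antioxidant genes (0.88 ± 0.12 SE, adjusted p = 4.3e-06), and Gabpa (0.25 ± 0.08 SE, adjusted p = 0.026), whose span overlaps that of the member Atp5j.

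Of 11 carriers, channels and uncoupling proteins, 6 were called lower and 1 higher, with a median of -0.15. Ckmt1, the mitochondrial creatine kinase, differed by -0.63, Atpif1, the inhibitor of complex V, by -0.40, and the adenine nucleotide carrier Slc25a4 by -0.19, whereas the uncoupling-protein relative Ucp2 was higher by 0.55. Of 44 assembly factors, 5 were called lower and 6 higher, with a median of -0.02. These shares were near the 11.8% lower and 14.8% higher of all genes. In experiment 1 alone, 5 of the 44 were called lower and 0 higher, against 10.5% and 12.8% of all genes.

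The 2 most similar gene groups were set beside the members and beside all genes, of which 11.8% were called lower and 14.8% higher. Of 23 citrate cycle genes that are not members, 7 were called lower and 2 higher, with a median of -0.11, and the lower ones included citrate synthase Cs (-0.17) and Idh3a (-0.22). Of 79 mitochondrial ribosomal protein genes, 3 were called lower and 5 higher, with a median of -0.01. Only 1 of those 79 genes reached a mean level of 8, against 64 of the 97 members. The difference between these groups was not tested.

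The experiments were then taken apart, since they differ in size and sex. In experiment 1 (6 mice per genotype), 20 members were called lower and 3 higher, against 10.5% and 12.8% of all genes, with a median of -0.17. In experiment 2 (4 males per genotype), 0 were called lower and 2 higher, against 0.419% and 3.18% of all genes. The median was -0.10, and 76 members were below 0, against 50.3% of all genes. At an unadjusted p under 0.05 in limma, the one tool run, 10 of the 97 members passed in experiment 2. This was a smaller share than the 16.2% of all genes. The 2 members called in experiment 2 were Cox6a2, higher by 0.93 ± 0.17 (SE, adjusted p = 0.0097), and Cox6b2, higher by 0.85 ± 0.15 (SE, adjusted p = 0.0071). In experiment 1 they were higher by 1.24 ± 0.10 (SE) and 0.67 ± 0.12 (SE). Cox7a1 was higher by 0.84 ± 0.12 (SE) in experiment 1 and 0.41 ± 0.22 (SE) in experiment 2, where it was not called.

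The difference between the experiments was tested in males and gave 0 calls among members and 0% of all genes, with 1 member at an unadjusted p under 0.05, against 3.57% of all genes. This was Ndufa4l2, whose genotype difference was larger in experiment 2 than in the males of experiment 1 by 0.34 ± 0.15 (SE), with an adjusted p of 0.9991. The same test between the sexes in experiment 1 gave 0 calls, 0% of all genes, and 3 members at an unadjusted p under 0.05, against 4.34% of all genes. The smallest belonged to Ndufs5, an accessory subunit of complex I, with a difference between the sexes of -0.61 ± 0.26 (SE) and an adjusted p of 0.99. With 14 untreated males alone, 4 of the 97 members were called lower and 4 higher, against 6.04% and 9.7% of all genes. Neither share of members was above that of all genes, while 78 members had a difference below 0. Their median was -0.14, against -0.001 for all genes.

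MIF mice were compared with the 4 untreated SOD1-G37R males and the 4 NT males of experiment 2. These comparisons share mice with each other and with the genotype comparison. Against untreated SOD1-G37R mice, 0 of the 97 members were called in either direction, against 0% of all genes lower and 0.00644% higher, which is 1 gene, Cd74. The median difference of the members was 0.00, 48 were below 0, and 1, Atp5l, passed at an unadjusted p under 0.05, against 3.29% of all genes. Atp5l, subunit g of complex V, stood at 4.69, 4.31, 4.33 and 4.41 in the MIF mice and at 4.80, 4.72, 4.83 and 4.76 in the untreated SOD1-G37R males. The groups did not overlap, and the difference was -0.34 ± 0.12 (SE, adjusted p = 0.9997). The share of all genes without overlap was counted only over both experiments together, not within 1 experiment or for MIF mice. With 4 mice per group, separation of single members therefore has no such share beside it. Its row is low for an abundant subunit, and processed copies of Atp5l are annotated elsewhere in the genome, which makes the row uncertain.

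The mitochondrial DNA genes lay above the untreated SOD1-G37R males on average, and 1 mouse carried this. All 7 differences were above 0, from 0.06 to 0.36 with a median of 0.27, and none was called. ND4 stood at 9.42, 8.78, 8.48 and 8.94 in the MIF mice and at 8.33, 8.93, 8.51 and 8.44 in the untreated SOD1-G37R males. The groups overlapped, with a difference of 0.36 ± 0.20 (SE, adjusted p = 0.9997). MIF replicate 1 was the highest of the 4 in each of the 7 genes, and its mean over them was 7.81 against 6.94 to 7.25 in the other MIF mice. Without it, 4 of the 7 differences were above 0, from -0.13 to 0.24 with a median of 0.00.

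Of the 4 members called higher in SOD1-G37R mice, Cox6a2 was also called higher in MIF than in NT mice, and Cox6b2, Cox7a1 and Atp5g2 were not. Cox6a2 stood at 4.15, 4.26, 4.43 and 4.36 in the MIF mice, at 4.25, 3.91, 4.59 and 3.73 in the untreated SOD1-G37R males and at 3.19, 3.48, 3.02 and 3.08 in the NT males. All 4 MIF mice lay above all 4 NT males. Against NT, Cox6a2 was higher by 1.11 ± 0.16 (SE, adjusted p = 7.4e-04), the 1 member called higher, with 0 called lower, where 2.89% of all genes were called higher and 0.225% lower. Against untreated SOD1-G37R mice it differed by 0.18 ± 0.16 (SE, adjusted p = 0.9997).

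Cox6b2 stood at 3.49, 4.08, 4.30 and 3.75 in the MIF mice, at 4.24, 4.05, 4.67 and 4.02 in the untreated SOD1-G37R males and at 3.31, 3.52, 3.56 and 3.20 in the NT males. MIF mice overlapped both groups, with differences of -0.34 ± 0.17 (SE) from untreated SOD1-G37R and 0.51 ± 0.17 (SE, adjusted p = 0.16) from NT. Cox7a1 differed by 0.13 ± 0.22 (SE) from untreated SOD1-G37R and by 0.54 ± 0.22 (SE, adjusted p = 0.26) from NT, and its 4 MIF values lay above the 4 NT values by a very narrow margin. Atp5g2 differed by -0.26 ± 0.16 (SE) from untreated SOD1-G37R and by 0.18 ± 0.16 (SE) from NT. With 4 mice per group these errors leave room for differences of the size seen between genotypes, so a missed threshold does not show that MIF and untreated mice are alike.

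Against NT, 80 of the 97 members had a difference below 0 in MIF mice, against 49.9% of all genes, with a median of -0.11. At an unadjusted p under 0.05, 5 of the 97 members passed, a smaller share than the 14.4% of all genes. Ndufs5 had the smallest p after Cox6a2 and Cox6b2, at -0.45 ± 0.18 (SE, adjusted p = 0.25). Ndufa9, an accessory subunit near the ubiquinone site, differed by -0.27 and its 4 MIF values lay below the 4 NT values. Those of Sdha did so too, and neither member was called. The share of all genes separated in this way was not counted. The median difference from untreated SOD1-G37R mice was 0.20 for the 10 neuron markers and 0.02 for the 12 microglia markers, and no marker of either list was called.

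**Figure D5:**
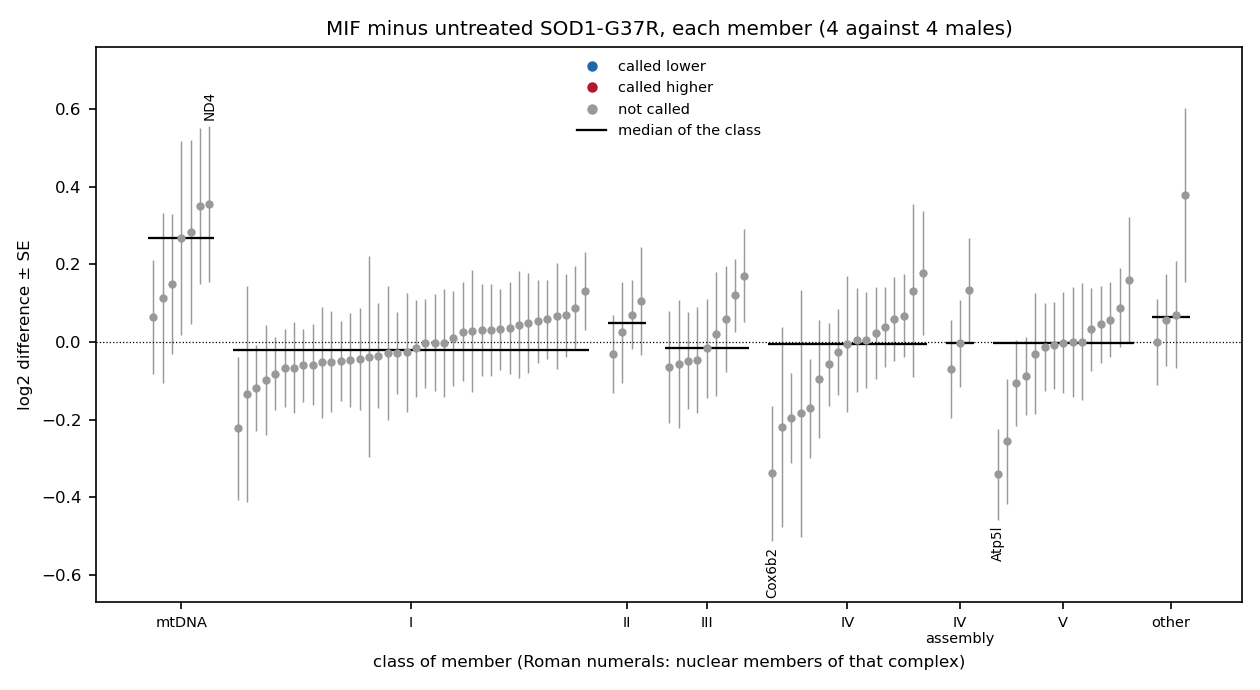
The log2 difference MIF minus untreated SOD1-G37R with its standard error for each of the 97 members, sorted by class, from 4 males per group. All points are grey because none was called, and the 7 mitochondrial DNA genes lie above 0 with a median of 0.27 while the nuclear classes lie around 0.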

How the data were processed

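Bulk 3′ RNA libraries with molecular tags were made from the lumbar cord of 24 perfused mice. The submitters' processing notes name Trim Galore 0.4.5, cutadapt 1.15, STAR 2.5.2a, RSEM 1.2.28 and the GRCm38 build, and per the methods the authors then adjusted for batch (ComBat in the sva package). The deposited log2 values per mouse are used as given. Their transform is not stated, and 2.22% lie below 0. As the batch was removed before testing, p-values may be somewhat too small. Columns with the authors' own fold changes and p-values were not used. Reads from overlapping or near-identical genes may be shared, since use of strand in counting is not given in the sources used here.

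All 15524 genes were fitted with limma 3.58.1 in R 4.3.3, with genotype and experiment as terms for the genotype comparison (20 mice) and group for the MIF comparisons (12 males of experiment 2). P-values were adjusted with Benjamini-Hochberg over all genes. Interactions with experiment and sex were fitted in the same way. Fits were tested on simulated data. Python 3.11.15 with numpy 2.4.6, pandas 2.3.3 and matplotlib 3.10.9 made summaries and plots. Positions came from GENCODE M21.

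Members and lists were chosen with earlier results of these data known. The animals are separate mice, and nothing more is stated on their independence. Named members were all mitochondrial DNA genes, per complex the 3 called members of smallest adjusted p in each direction, the isoform pairs, up to 5 called members or the 3 of smallest adjusted p in each MIF comparison, and the 1 of smallest adjusted p in each interaction. Ndufv1, Ndufs3, Ndufs7, Ndufs8, Ndufa1, Ndufa9, Sdhb, Sdhc, Sdhd, Cycs, Cox10, Cox11 and Cox17 were added after their values were seen, as were neighbouring genes and the comparison with genes at a mean level of at least 8. Cycs was dropped from the list of carriers because it is a member. Alternatives changed the covariates, the mice, the scaling, the threshold, the filter on level and the fit. Males were placed in an experiment from the methods and their label codes.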

Additional observations from a re-analysis of the deposited data

Results flagged for a closer look

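In 38 named members and 3 groups, 114 sets of values were tested with Dixon's criterion, and 8 had a mouse far from the rest of its group. Chance alone flags about 1 in 20 such sets. SOD1-G37R male replicate 1 of experiment 2 was the highest of the 10 untreated SOD1-G37R mice by a wide gap for Cox4i1 (11.48, next 11.10), Atp5b (11.12, next 10.93), Cox6a1 (11.20, next 10.98) and Atp5g3 (11.13, next 10.75). MIF replicate 1 was the highest of the 4 MIF mice for Ndufb8 (10.28, next 9.86) and Atp5j2 (9.88, next 9.49). NT male replicate 3 of experiment 2 was the lowest NT mouse for Cox7b (5.94, next 6.89), and NT male replicate 4 of that experiment was the highest for Cox7b2 (1.76, next 1.47). No member was called for a difference between experiments or between sexes.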

How the results depend on the processing

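The count of members called lower in SOD1-G37R mice moved from 30 to 0 in experiment 2 alone, to 4 in males alone, to 49 after median centring and to 11 at an adjusted p under 0.01. It ran from 21 to 35 when 1 mouse was left out, lowest without NT female replicate 6. The count called higher was 4 in all of these leave-outs, 2 in experiment 2 alone and 2 with a mean level of at least 4, a filter that removes Cox6a2 and Cox6b2. In MIF against NT mice the count called higher was 1 with each mouse left out, 2 with the replicate number as a block and 0 with that filter. For MIF against untreated mice the counts stayed at 0 under every alternative run. The replicate block gave 27 members lower and 4 higher in the genotype comparison, sharing 29 calls with the fit without it. Same-numbered mice correlated above 0.1 in 2 of 6 pairs in experiment 1 and 4 of 12 in experiment 2. Differently numbered mice did so in 1 of 12 and 8 of 36 pairs. So few pairs cannot decide whether the numbers pair the mice. Quantile normalization gave 22 lower and 6 higher members. No named call changed sign under an alternative for single members. The depth of each library, not known here, and 4 mice per group in experiment 2 limit what could be detected.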
